A study of Mus musculus with 6 samples.

Results

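The genes of the cytoplasmic ribosomal proteins were examined in a map of CHD7 and of H3K27ac in mouse cardiac neural crest cells. Members were the RefSeq protein-coding genes of the mm10 build whose symbols begin with Rpl or Rps and a number, together with Rplp0, Rplp1, Rplp2 and Rpsa. Rps6 kinase genes, Rps19bp1 and pseudogene symbols were left out. This gave 88 members of 21776 protein-coding genes, of which 77 encode the standard proteins of the cytoplasmic ribosome and 11 are paralogs or retrogenes.

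Chromatin immunoprecipitation with sequencing (ChIP-seq) was done on GFP-positive cells sorted from pharyngeal arches 3 to 6 of embryos at E10.5, the offspring of Wnt1-Cre2 males and mTmG females. In mTmG mice, Cre switches a ubiquitous red membrane reporter to a green one, so the sorted cells are those with a history of Wnt1-Cre2 activity, and all libraries share this genotype and stage. The groups were CHD7, H3K27ac and input, with 2 libraries each, numbered 1 and 2, and no mutant or treated group. Separate litters or sorts are not mentioned for the libraries, so the spread between them may be technical.

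Ribosomal proteins assemble with ribosomal RNA into the small and the large subunit of the ribosome, and nearly all cells transcribe their genes at high rates. The mammalian genes are compact, many host small nucleolar RNAs in their introns, and their transcripts often begin in a run of pyrimidines, the terminal oligopyrimidine tract through which the mTOR pathway controls translation. CHD7 is an ATP-dependent chromatin remodeller whose loss in humans causes CHARGE syndrome, with heart and outflow tract defects. H3K27ac, the acetylation of lysine 27 on histone H3, marks active promoters and enhancers.

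Start sites of 68 of the 88 members were found in the RefSeq promoter table (build GRCm38.p6), which gives 250 bases before and 50 after a start. A run of at least 8 C or T within 10 bases of the start stood in 25 of 57 standard genes with an entry (43.9%), against 13.3% of 17492 promoters of the same length. The first 3 sequences below are such promoters among genes with a CHD7 region, and the next 3 belong to genes with H3K27ac but without a CHD7 region of both libraries. Rps7 and Rps19 have high CHD7 signals and no such run, and at the retrogene Rpl10l and the muscle paralog Rpl3l neither antibody had a region of both libraries. Each sequence runs 5′ to 3′ from 60 bases before the start through the first 20 transcribed bases, and capitals mark the run of C or T.
Rpl4: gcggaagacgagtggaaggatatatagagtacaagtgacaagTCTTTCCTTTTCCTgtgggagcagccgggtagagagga
Rpl7a: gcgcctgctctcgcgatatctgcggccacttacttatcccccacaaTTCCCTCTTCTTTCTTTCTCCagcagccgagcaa
Rpl15: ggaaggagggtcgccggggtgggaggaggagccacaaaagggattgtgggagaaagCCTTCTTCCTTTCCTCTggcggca
Rpl31: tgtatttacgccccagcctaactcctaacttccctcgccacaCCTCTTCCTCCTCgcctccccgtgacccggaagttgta
Rpl35: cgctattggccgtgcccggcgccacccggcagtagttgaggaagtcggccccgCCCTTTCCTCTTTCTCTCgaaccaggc
Rpl28: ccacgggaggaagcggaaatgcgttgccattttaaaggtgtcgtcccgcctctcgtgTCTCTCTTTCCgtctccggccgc
Rps7: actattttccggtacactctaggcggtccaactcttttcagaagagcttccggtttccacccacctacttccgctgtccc
Rps19: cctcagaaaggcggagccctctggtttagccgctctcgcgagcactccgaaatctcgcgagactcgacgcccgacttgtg
Rpl10l: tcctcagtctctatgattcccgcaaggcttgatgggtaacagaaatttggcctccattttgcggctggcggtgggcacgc
Rpl3l: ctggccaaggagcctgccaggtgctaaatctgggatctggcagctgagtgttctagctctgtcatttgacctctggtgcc

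In GRCm38.p6 these windows lie at chr9:64173327-64173406 on the plus strand (Rpl4), chr2:26910747-26910826 on the plus strand (Rpl7a), chr14:18270967-18271046 on the minus strand (Rpl15), chr1:39367791-39367870 on the plus strand (Rpl31) and chr2:39005112-39005191 on the minus strand (Rpl35). The others lie at chr7:4792905-4792984 on the plus strand (Rpl28), chr12:28635934-28636013 on the minus strand (Rps7), chr7:24884532-24884611 on the plus strand (Rps19), chr12:66284382-66284461 on the minus strand (Rpl10l) and chr17:24727766-24727845 on the plus strand (Rpl3l).

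Runs of pyrimidines occurred in genes with CHD7 and in genes without. Such a run stood in 20 of 49 standard genes with a CHD7 region and an entry, and in 5 of 8 without one. The ETS family core CCGGAAG, searched on both strands of the 300 bases, was in 23 of 57 standard genes (40.4%), against 11.9% of all promoters. The same core was in 20 of the 49 genes with CHD7 and in 3 of the 8 without. Other motifs were less far from the whole set, with the YY1 core AAGATGGC in 4 of 57 (7.02%, against 3.22%), the GC box GGGCGG in 34 (59.6%, against 46.3%) and CCAAT in 18 (31.6%, against 39.0%). TATAAA was in 5 of the 57 (8.77%, against 13.3%) and the E-box CACGTG in 5 (8.77%, against 7.90%). The median ratio of observed to expected CpG was 0.903 in standard genes, 0.521 in the 6 paralogs without a region of both libraries for either antibody, and 0.576 over all promoters. A match describes these letters and is not evidence of a bound factor.

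A gene was called positive where peaks of both libraries of an antibody overlapped and the joint region lay within 1 kb of either annotated gene end. Of the 88 members, 71 (80.7%) had a CHD7 region, against 44.2% of all protein-coding genes. H3K27ac regions were at 79 members (89.8%), against 47.6% of all genes. Both were present at 70 members, against 39.3% of all genes. Among genes with H3K27ac, 70 of 79 members (88.6%) had CHD7, against 82.6% of all genes. Ribosomal protein genes are short, with a median length of 3179 bp against 17218 bp over all genes, and among genes under 10 kb only 30.7% had CHD7 and 33.3% H3K27ac. When only peaks with a −log10 q of 10 or more were used, CHD7 was at 30 members (34.1%, against 10.6% of all genes), H3K27ac at 73 (83.0%, against 28.3%) and both at 29 (33.0%, against 8.54%). A peak in bulk sorted cells does not tell in what share of the cells it is present.

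By library, CHD7 peaks stood at 78 and 75 members (88.6% and 85.2%) and H3K27ac peaks at 80 and 78 (90.9% and 88.6%). The backgrounds over all genes were 51.1% and 49.1% for CHD7 and 51.3% and 49.8% for H3K27ac. No member had an input peak in either library, against 0.0689% and 0.133% of all genes. The share of members was 86.9% ± 2.41 (SD, n = 2) for CHD7 and 89.8% ± 1.61 (SD, n = 2) for H3K27ac, and this difference of −2.84 points was within the spread (two-sided exact permutation test, p = 0.667, where 0.3333 is the smallest p that 2 against 2 libraries allow). The difference grew with stricter peak limits. It was −22.2 points with the 10000 peaks of lowest q and −38.6 points at a −log10 q of 10 or more. In each setting the libraries did not overlap and the permutation test gave its smallest p. Over all genes, the shares with regions of both libraries drew apart as well. They were 44.2% for CHD7 and 47.6% for H3K27ac, 20.2% and 31.4% with the 10000 peaks, and 10.6% and 28.3% at the q limit.

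Both subunits were covered. CHD7 was at 27 of 31 small subunit genes and H3K27ac at all 31. For the large subunit without its stalk, CHD7 was at 37 of 43 and H3K27ac at 40 of 43. Genes hosting small nucleolar RNAs had CHD7 in 25 of 30 cases and the remaining standard genes in 41 of 47. The counts were also close where another gene shares an end of the member, with CHD7 at 25 of 29, and where none does, with CHD7 at 41 of 48. The 11 paralogs were mixed, with both antibodies at Rpl22l1, Rps23rg1, Rps27l, Rpl36al and Rpl7l1, and neither at Rpl37rt, Rps27rt, Rpl32l, Rpl10l, Rpl39l and Rpl3l. Of these 6, Rpl3l had an H3K27ac peak in library 1 alone, with a fold of 3.58, and the others had no peak of either antibody.

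The 3 standard genes without an H3K27ac region at an annotated end were Rpl17, Rpl18 and Rpl22. Within their gene bodies all 3 had regions of both antibodies. At Rpl17, whose protein lies at the peptide exit tunnel, the H3K27ac fold was 8.37 in library 1 and 9.35 in library 2, and the CHD7 fold was 2.78 and 3.54. Fold here is the enrichment at a peak's summit given by the authors' peak caller, and it ranks peaks only within a list. Rpl22 also had a CHD7 region at its annotated 3′ end, with 3.29 and 2.69. At Rpl18 H3K27ac was 6.49 and 6.26 and CHD7 3.98 and 3.29, and at Rpl22 H3K27ac was 5.49 and 4.78 and CHD7 3.22 and 3.94. For Rpl18 and Rpl22 the promoter table lists a start inside the annotated gene, close to these regions. Counted over the gene and 1 kb around it, H3K27ac was at all 77 standard genes, against 54.2% of all genes, and CHD7 at 68, against 52% of all genes.

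**Figure D1:**
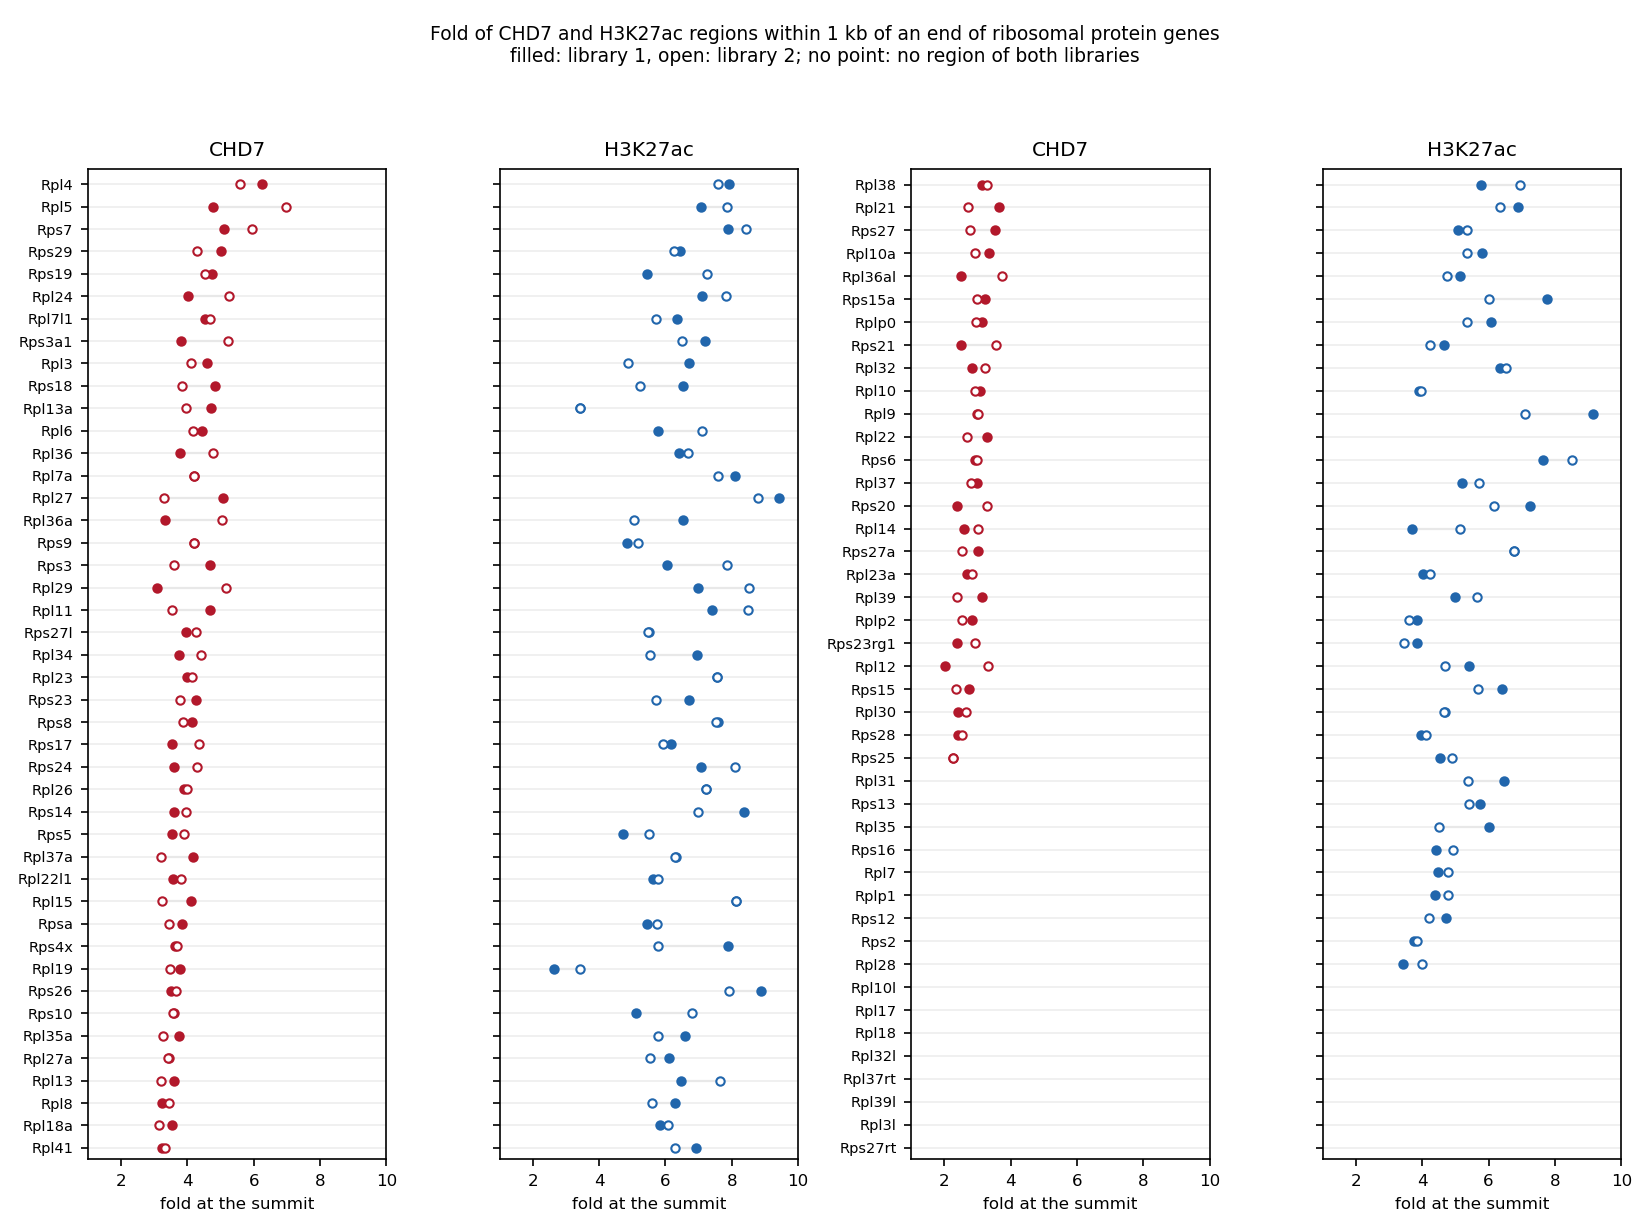
Fold at the summit of the strongest CHD7 (red) and H3K27ac (blue) region within 1 kb of an end of 87 ribosomal protein genes, ordered by mean CHD7 fold; filled points are library 1 and open points library 2. CHD7 values fall from Rpl4 to Rps25, and 9 genes carry H3K27ac points without CHD7 points.

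The plot by gene shows CHD7 folds that were modest at these genes, while H3K27ac folds were high. The median CHD7 fold over the 71 positive members was 3.58 in library 1 and 3.54 in library 2, against 3.75 and 3.74 over all genes with CHD7. Their median percentile in the list was 42.2 and 40.6. By q-value the reading differed. A CHD7 region stayed at 30 of these 71 members at −log10 q of at least 10, against 2303 of the 9618 genes with CHD7. The median H3K27ac fold over the 79 positive members was 6.17 and 5.72, against 4.89 and 4.77 over all genes with H3K27ac, at median percentiles of 81.4 and 75.5. Above the 90th percentile of the list stood 24 of 79 members for H3K27ac in each library, and 1 and 6 of 71 for CHD7. Over the members, the Spearman correlation between libraries was 0.66 for CHD7 (71 genes) and 0.81 for H3K27ac (79 genes). Between the antibodies it was 0.39 over 70 members, and 0.44 over all genes with both. These correlations run across genes of the same libraries and are descriptive.

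**Figure D2:**
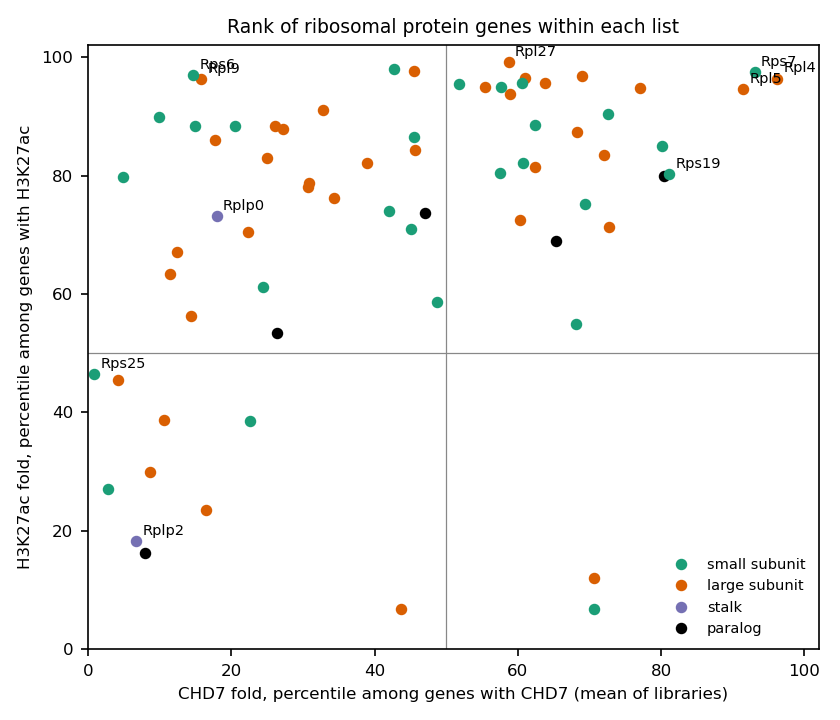
Percentile by fold, as the mean over both libraries, among all genes with CHD7 (x axis) and among all genes with H3K27ac (y axis). Points are the 70 members with both, and colours give the subunit. Most points lie in the upper part, spread over the whole width, with Rpl4, Rps7 and Rpl5 in the upper right corner and Rplp2 in the lower left.

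The highest CHD7 signal was at Rpl4, a large subunit protein that lines the exit tunnel, with a fold of 6.25 in library 1 and 5.58 in library 2. Its strongest region was not at the start, where the fold was 4.23 and 2.58, but past the 3′ end at chr9:64178690-64179762, within 1 kb of an end of Snapc5 as well. Rpl5, whose protein joins Rpl11 in a complex that can bind MDM2, had 4.78 and 6.98. Rps7, a small subunit protein, had 5.09 and 5.95. The libraries thus differed in which of the leading genes was first. Rps29, a zinc-binding small subunit protein, followed with 5.0 and 4.29. Rps19, mutated in Diamond-Blackfan anaemia, had 4.75 and 4.53. Rpl24, at the interface between the subunits, had 4.01 and 5.26. Next were the paralog Rpl7l1, with 4.52 and 4.69, and Rps3a1, a small subunit gene, with 3.82 and 5.23. The Rpl7l1 values were those of its 3′ end, near an end of another gene, and its start had 4.18 and 4.40. Rpl11, the partner of Rpl5, had 4.68 and 3.54.

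The lowest CHD7 folds among positive members were at Rps25, a small subunit protein required by some viral internal ribosome entry sites, with 2.26 in each library, and at Rps28, another small subunit gene, with 2.42 and 2.54. Rpl30 of the large subunit had 2.43 and 2.66, Rps15 of the small subunit 2.76 and 2.37, and Rpl12, near the base of the stalk, 2.01 and 3.31. These 5 genes nevertheless carried H3K27ac. At Rps25 the CHD7 values were those of the 3′ end, near an end of another gene, and its start had 1.90 and 2.08. The ribosomal stalk recruits the elongation factors. Rplp0, which anchors it, had a CHD7 fold of 3.14 and 2.96 and Rplp2 2.82 and 2.53. The values of Rplp0 and Rplp2 were those of the 3′ end, and neither had a region of both libraries at the start. Rplp1 had no CHD7 region of both libraries. Rpsa, the laminin receptor protein of the small subunit, had 3.84 and 3.45 at its 3′ end, and its start had 3.03 and 3.42. On the X chromosome all 4 genes had both antibodies, with CHD7 folds of 3.07 and 2.94 at Rpl10 and 3.34 and 5.05 at Rpl36a. Rpl39 had 3.13 and 2.39 at its 3′ end, with no CHD7 region of both libraries at its start. Rps4x had 3.61 and 3.67. The Rpl10 values were those of its 3′ end, near an end of another gene, and its start had 2.17 and 2.69.

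The strongest H3K27ac was at Rpl27, a large subunit gene, with a fold of 9.42 and 8.78. Rps26, at the mRNA exit channel, had 8.87 and 7.91. Rps7 had 7.89 and 8.42, Rpl15 8.14 in each library, and Rpl9 9.14 and 7.11. Only Rps7 of these 5 was also among the 8 genes highest in CHD7.

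H3K27ac without a CHD7 region of both libraries was seen at 9 genes, and each of them had a CHD7 peak in at least 1 library. At Rpl31 and at Rpl35, both at the exit tunnel, the H3K27ac folds were 6.47 and 5.39, and 6.02 and 4.5. Rpl31 had CHD7 peaks of 3.24 and 3.84 in the 2 libraries that did not overlap, and Rpl35 had a CHD7 peak of 2.55 in library 1. Rps13, Rps16, Rps12, Rps2 and Rplp1 had CHD7 peaks in library 1 alone, between 2.00 at Rps12 and 2.62 at Rps16. Rpl7 and Rpl28 had them in library 2 alone, at 2.69 and 2.27. In 8 of the 9 genes the CHD7 peak was thus called in 1 library alone, and depth, unknown for peak lists, limits what can be said of the other library.

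Around starts, CHD7 lay just inside the gene. A region within 1 kb of a start in the promoter table was present at 49 of 68 members for CHD7, against 45.4% of all genes, and at 62 of 68 for H3K27ac, against 49.7%. The median distance of the strongest CHD7 summit from the start was 225 and 230 bp downstream in the 2 libraries, and that of H3K27ac 269.5 and 283.5 bp. Of 49 members with CHD7 at a tabled start, 87.8% and 81.6% had this summit in the first 500 bp, against 52.2% and 54.7% of all genes. Summits upstream of the start made up 12.2% and 18.4% in members and 37.4% and 36.2% over all genes.

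A second site of CHD7 lay past the 3′ end. This comparison was chosen after the data were seen, and covers the 54 members with a tabled start whose ends lie over 2 kb apart. CHD7 was within 1 kb of the start in 40 (74.1%) and within 1 kb of the 3′ end in 26 (48.1%). In genes of 2 to 10 kb these shares were 37.9% and 8.45%, and over all genes with separate ends 50.4% and 6.56%. H3K27ac was at the start of 51 (94.4%, against 42.6% in genes of 2 to 10 kb) and at the 3′ end of 4 (7.41%, against 5.2%). Over all genes with separate ends the H3K27ac shares were 55.2% and 3.79%. In the libraries taken singly, CHD7 peaks were at the 3′ end of 28 and 27 members, H3K27ac peaks of 5 and 3, and input peaks of none.

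**Figure D3:**
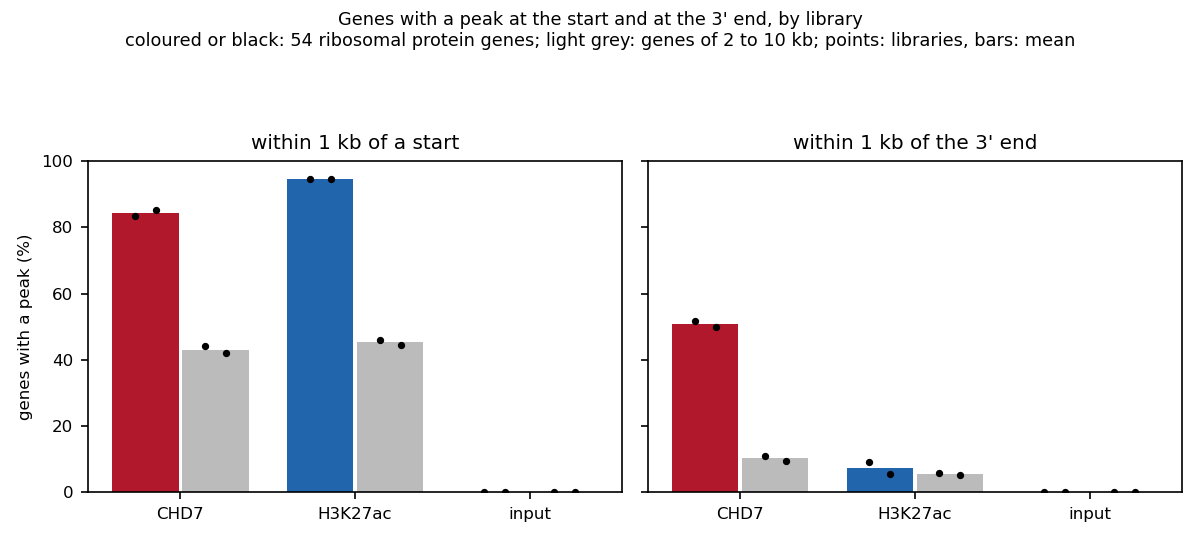
Percentage of genes with a peak within 1 kb of the start (left) and of the 3′ end (right), for 54 ribosomal protein genes and, in light grey, genes of 2 to 10 kb; points are libraries and bars their mean. At the 3′ end the CHD7 points of the members (51.9% and 50%) lie above all others.

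Neighbouring genes could put a promoter at the 3′ end of a member. Among the 40 members with no end or listed start of another protein-coding gene within 1 kb of their 3′ end, 19 (47.5%) had CHD7 there, against 4.79% of genes of 2 to 10 kb with the same property, and 29 had it at the start, against 33.9%. H3K27ac was at the 3′ end of 1 of the 40, against 1.93%, and at the start of 38 of them, against 37.7%. Of the 26 regions of CHD7 at 3′ ends, 3 (11.5%) overlapped an H3K27ac region, against 175 of 351 (49.9%) in genes of 2 to 10 kb. All 3, at Rpl4, Rpl7l1 and Rps18, lie near an end of another gene. With −log10 q of at least 10, 11 of the 54 members (20.4%) had CHD7 at the 3′ end, against 2.33%. The 3 kb after the gene held CHD7 in 33 of the 54 members (61.1%), against 11.5% of genes of 2 to 10 kb, and H3K27ac in 12 (22.2%), against 9.46%. Of the 40 members with no other gene within 1 kb of the 3′ end, 24 had CHD7 in those 3 kb (60%, against 7.95%). H3K27ac was there in 6 of the 40 (15.0%, against 5.72%). The 1 kb limit does not remove genes with an end farther past the member. Their part in the CHD7 regions was not tested.

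**Figure D4:**
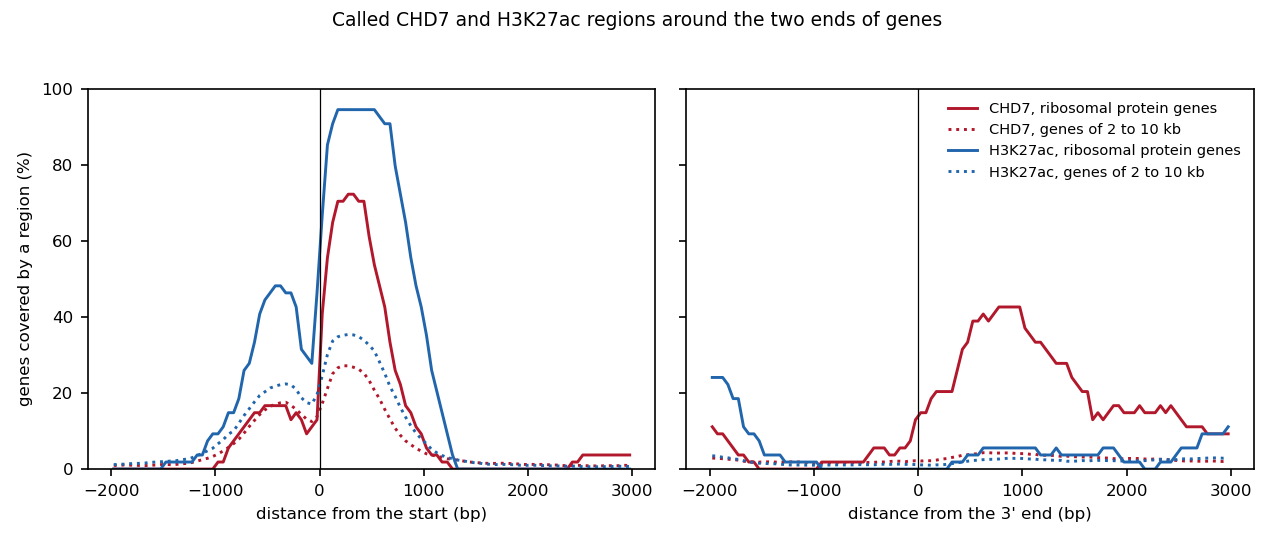
Percentage of the 54 ribosomal protein genes (solid) and of genes of 2 to 10 kb (dotted) covered by a CHD7 (red) or H3K27ac (blue) region, by distance from the start (left) and from the 3′ end (right) along the gene. CHD7 covers up to 72.2% of the members near 275 bp after the start and up to 42.6% near 775 bp past the 3′ end, where H3K27ac covers 5.56%.

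The profile of covered genes had its highest CHD7 cover 775 bp past the annotated end. The middle of the CHD7 region lay past the end in 25 of the 26 members, and the whole region in 18, while that of Rpl22 lay inside the gene. Rpsa is an example: CHD7 was 3.03 and 3.42 at the start and 3.84 and 3.45 in a region at chr9:120132350-120134100, 856 bp past the end by its middle. At Rps19 the fold was 4.75 and 4.53 at the start and 4.07 and 3.69 at chr7:24890524-24892257. At Rpl23, a large subunit gene, it was 3.98 and 4.14 at the start and 3.80 and 3.72 past the end. In these genes no other protein-coding gene had an end within 1 kb of the 3′ end, and no H3K27ac region was there. In 6 members, Rpl13a, Rpl39, Rplp0, Rplp2, Rps6 and Rps9, a CHD7 region of both libraries was at the 3′ end but not at the start. A single library can still have a start peak, as library 2 had at Rplp0, with a fold of 3.00. Taken singly, the libraries had CHD7 start peaks at 45 and 46 of the 54 members, against 44.2% and 41.9% in genes of 2 to 10 kb. Rps9, needed for accurate decoding, had 4.19 in each library, and Rps6, the target of S6 kinases, 2.94 and 2.98. Rpl13a, a large subunit gene, had 4.70 and 3.97, in a region that also lies within 1 kb of an end of another gene. Of the 20 members with CHD7 at both ends, the fold was higher at the 3′ end in both libraries in 8 (40%) and lower in both in 9 (45%). In 182 genes of 2 to 10 kb with different CHD7 regions at both ends, these shares were 31.3% and 49.5%.

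**Figure D5:**
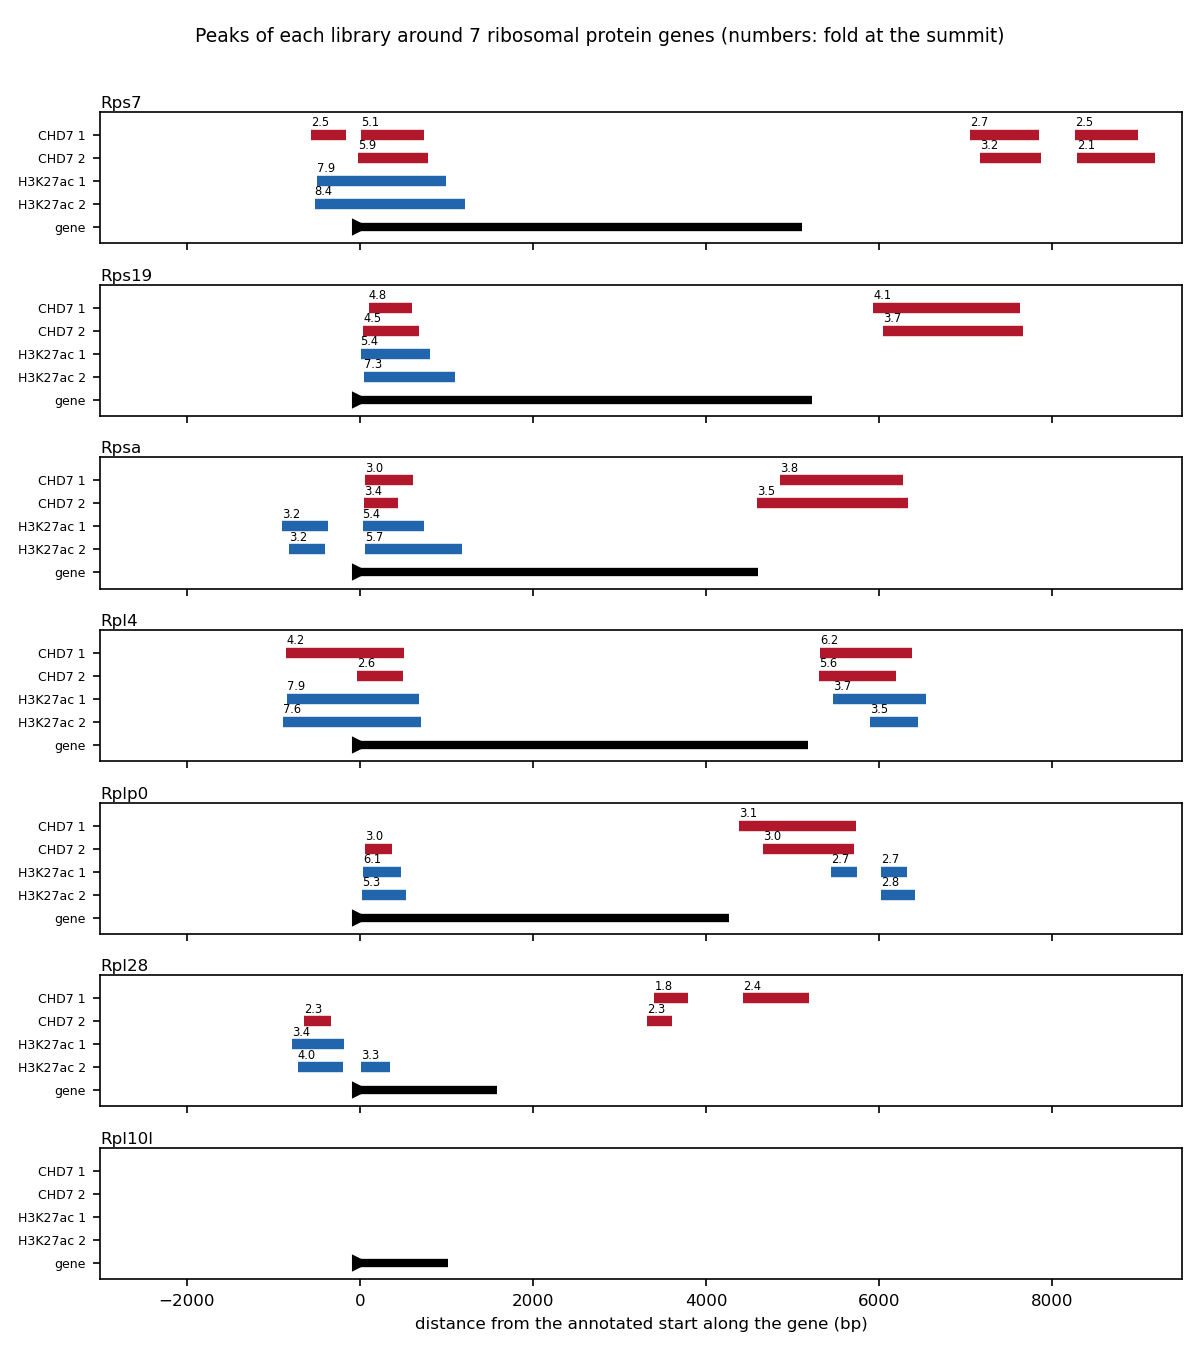
Called peaks of each CHD7 (red) and H3K27ac (blue) library around 7 ribosomal protein genes, with the gene in black and its start at 0 on the x axis (bp along the gene); numbers are the fold at the summit. CHD7 peaks past the 3′ end stand without H3K27ac at Rps7, Rps19, Rpsa and Rpl28, and with it at Rpl4. At Rplp0 an H3K27ac peak of library 1 alone overlaps them, and Rpl10l has no peak.

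At 62 of 70 members with both antibodies (88.6%), a CHD7 region overlapped an H3K27ac region, against 95.8% of all genes with both. This count is by gene, and of the 26 CHD7 regions at 3′ ends only 3 overlapped H3K27ac. Members without overlap at the ends included Rpl13a, Rpl19, Rpl39, Rplp0, Rplp2, Rps6 and Rps9. At Rpl19 regions of both antibodies did overlap inside the annotated gene, close to its start in the promoter table. At least 2 CHD7 regions stood at the ends of 29 of 71 members (40.8%), against 23.8% of all genes with a CHD7 region. CHD7 regions of members had a median width of 706.5 bp, against 690 bp, and H3K27ac regions 965 bp, against 788 bp.

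Lists of other genes of the translation machinery were compared by the same measure. At gene ends, CHD7 was at 59 of 78 mitochondrial ribosomal protein genes and 31 of 35 initiation factors. It was at 10 of 10 genes listed with the elongation and termination factors, Tpt1 among them. Ribosome biogenesis genes had it in 43 of 47 cases and genes of RNA polymerase I in 8 of 12. H3K27ac was at 72, 34, 10, 43 and 9 genes of these lists, in the same order. Over all protein-coding genes the shares were 44.2% for CHD7 and 47.6% for H3K27ac. The leading biogenesis gene was Fbl, the methyltransferase fibrillarin, with CHD7 folds of 7.94 and 7.75, followed by Ltv1, a factor of small subunit assembly, with 7.56 and 4.84. The highest folds in the other lists were at Mrps36 (7.65 and 6.37) and Mrpl39 (5.72 and 6.31), at the initiation factors Eif5b (7.23 and 5.08) and Eif3e (6.23 and 5.14), at Eef2 (5.69 and 5.37) and Tpt1 (3.95 and 5.37), and at Tcof1 (5.88 and 4.38) and Taf1a (3.75 and 4.86).

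The same lists were then examined at the 3′ end, where 6.56% of all genes with separate ends and 8.45% of those of 2 to 10 kb had CHD7. It was at the 3′ end of 3 of 7 genes of the elongation and termination list with separate ends, Eef1a1, Eef1b2 and Eef2. Initiation factors had it there in 9 of 27 (33.3%). Among genes under 10 kb these counts were 3 of 5 (60%) and 5 of 9 (55.6%), beside 26 of all 54 ribosomal protein genes (48.1%). CHD7 was at the 3′ end of 5 of 64 mitochondrial ribosomal protein genes (7.81%), although 49 of these 64 (76.6%) had CHD7 at the start. Ribosome biogenesis genes had it in 5 of 37 (13.5%) and RNA polymerase I genes in 2 of 11 (18.2%). Under 10 kb, it was at 5 of 45 mitochondrial ribosomal protein genes (11.1%), 2 of 11 biogenesis genes (18.2%) and 0 of 2 RNA polymerase I genes. No test was made between these lists. Among the genes mutated in Diamond-Blackfan anaemia, 15 of 18 had CHD7 at an end (83.3%). This share was 86.4% in the remaining standard genes and 44.2% in all genes. Of the 13 Diamond-Blackfan genes with separate ends, 6 had CHD7 at the 3′ end (46.2%, near the 48.1% of all 54 members). They were Rps19, Rpl5, Rpl11, Rps10, Rpl26 and Rpl27.

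The cell type in the labels was checked by markers, for which a region at a gene end is only a partial measure. H3K27ac was at 2 of 10 neural crest markers (Sox9 and Twist1), at 0 of 5 cardiomyocyte and 0 of 5 endothelial markers. It was at 2 of 5 blood markers (Klf1 and Spi1), at 1 of 5 epithelial and at 2 of 5 mesodermal markers. The share over all protein-coding genes was 47.6%, above that of every marker list. By this measure the labelled cell type was therefore not borne out. The remaining 8 neural crest markers had no H3K27ac region at an end, and the part of other cells in the ribosomal protein signal was not tested.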

How the data were processed

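Per the submitters' processing notes, bcl2fastq 2.18.0.12, Bowtie2 2.3.3.1, Picard and MACS2 2.1.2 were used with build mm10. The authors deposited 1 peak list per library, with an integer score, the fold (a ratio) at the summit and −log10 p and q-values. Whether input served as control, and the depth, are not given in the sources used here, and without counts no interval can be given. Rows of 1 interval were joined, and chromosomes 1 to 19, X and Y kept, which left 26927 to 31873 CHD7, 22686 to 24283 H3K27ac and 451 to 512 input peaks a library.

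Regions were overlapping peaks (at least 1 bp) of both libraries. Genes came from RefSeq, and 111 with unplaced coordinates were left out. A gene's fold is that of its strongest region. Python 3.11.15, NumPy 2.4.6, SciPy 1.17.1 and matplotlib 3.10.9 were used. The assignment was tested on simulated data (200 of 200 planted genes of 2000 found, 0 false). Planted peaks lay near the lower-coordinate end of well-separated genes, so calls at the other end and at shared ends were not tested.

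Members and lists were chosen with earlier results of these data known. Named genes were the 8 highest and 5 lowest in CHD7, the 5 highest in H3K27ac, members with 1 antibody, standard genes with neither, X-linked genes, Rplp0, Rplp1, Rplp2, Rpsa, Rpl5, Rpl11, Rps19, members with a distal region of both antibodies, and 2 per related list; those named for 3′ ends were chosen after their values were seen. 1 member was counted but is not reported by name here. Alternatives were other windows, q limits, overlaps, single libraries and member sets.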

Additional observations from a re-analysis of the deposited data

How the results depend on the processing

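With −log10 q of at least 10, CHD7 was at 30 members (against 10.6% of all genes), H3K27ac at 73 (28.3%) and both at 29 (8.54%). Without members sharing an end, CHD7 was at 44 of 55 (against 36.7% of genes sharing none), H3K27ac at 49 (39.6%) and both at 43 (32.1%). The median CHD7 fold, 3.64 over both libraries, was 4.20 at −log10 q of at least 10, 3.97 with the 10000 peaks of lowest q, 3.51 with regions of either library, 3.58 at tabled starts and 3.74 without shared ends, and leaving out a CHD7 replicate gave 3.47 to 3.54. The share with CHD7 at the 3′ end, 48.1%, was 34.4% within 500 bp (against 5.72% in genes of 2 to 10 kb), 63.6% within 2.5 kb (7 of 11 genes, against 13.7%), 20.4% at −log10 q of at least 10 (against 2.33%), 25.9% with the 10000 peaks of lowest q (against 3.63%), 53.7% with either library (against 12.5%), 50% without shared ends and 52.1% without paralogs. Leaving out a CHD7 replicate gave 50% to 51.9%. All these settings for the 3′ end were chosen after seeing the data, as was counting over the gene body. The difference in shares, −2.84 points, kept its sign in the settings run but not its size. It was −38.6 at −log10 q of at least 10, −22.2 with the 10000 peaks of lowest q and −10.3 at tabled starts, each at the smallest p of 0.3333, and −4.55 to −1.14 when a replicate was left out. With the replicate number as a block (paired, sign flips) it was −2.84 with an exact permutation p of 0.5, the smallest possible. Over all genes the shares with regions of both libraries also drew apart, to 20.2% for CHD7 and 31.4% for H3K27ac with the 10000 peaks. Peak lists without read counts leave the depth behind each absent peak unknown.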

Other observations

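Away from gene ends, 30 CHD7 regions had a ribosomal protein gene as nearest gene within 100 kb, at 21 members, and 11 of them (36.7%) overlapped H3K27ac, against 39.5% of all distal CHD7 regions. Of the 27 outside genes, 15 lay within 5 kb of the member and 2 of these overlapped H3K27ac, while 6 of the 12 farther away did. Past the 3′ end of Rps7 there were CHD7 regions at chr12:28628088-28628906 (2.73 and 3.19) and chr12:28626766-28627685 (2.46 and 2.12). A region 1031 bp from Rps20 fell just outside the 1 kb limit (1.81 and 2.44).

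Distal regions with both antibodies were nearest to Rpl12, Rpl14, Rpl24, Rpl34, Rplp1, Rps10 and Rps27rt. The farthest, 88166 bp from Rpl34, had CHD7 folds of 4.75 and 4.03. At Rpl24 a region 2282 bp away had CHD7 folds of 3.65 and 4.26 and H3K27ac folds of 5.49 and 5.96.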
